A study of Mus musculus with 82 samples.

Results

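The antigen presentation genes B2m, H2-D1, H2-K1, H2-T23, Tap1, Tapbp, Psmb8, Psmb9, Cd74 and H2-Aa were followed through ribosome-bound RNA of mouse cortex and white matter after stroke. These 10 genes were taken by symbol from a table of 48795 genes, not by a threshold on their levels. They were chosen with earlier results of these data known. The table held 82 libraries of brain RNA in 18 groups. The groups set beside each other were immunoprecipitates (IP) of stroke zones 1, 2, 3, 4 and 5 in cortical stroke and in white matter stroke. IP is RNA pulled down with tagged ribosomes and described in the series as enriched for astrocytes. There were 5 libraries for each zone and region. The IP of uninjured cortex and uninjured white matter, with 5 libraries each, served as reference. Each region also had 3 IP and 3 input libraries (input being RNA without pull-down) of stroke zones 1 to 3 together, and 5 input libraries of uninjured tissue. The tissue of every group was cut by laser capture from perfused, lightly fixed brain. The mouse strain, age, the Cre line that placed the tag, the time after stroke and the distance of each zone from the lesion are not given in the labels used here, and neither is which animal gave which library, so the p-values below measure the spread between libraries.

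MHC class I molecules show peptides from inside the cell to CD8 T cells. The proteasome cuts proteins into peptides, the immunoproteasome subunits Psmb8 and Psmb9 replace constitutive subunits and change which peptides are made, Tap1 forms with Tap2 the pump that carries peptides into the endoplasmic reticulum, tapasin (Tapbp) holds the empty class I molecule at this pump, and the heavy chains H2-K1, H2-D1 and the non-classical H2-T23 (Qa-1) leave for the surface paired with beta-2-microglobulin (B2m). MHC class II molecules, of which H2-Aa is an alpha chain, show peptides from engulfed material to CD4 T cells, and the invariant chain Cd74 guides them and blocks their groove until they reach the endosome. In healthy brain both pathways are low, interferons raise them, and microglia, infiltrating leukocytes and, under interferon, astrocytes can carry them.

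Library totals ran between 2518604 and 28245109 counts, with a median of 16979389.5. Ribosomal genes took most of them, so that the counts used here, those outside mt-Rnr1, mt-Rnr2, Gm42418, CT010467.1, Gm23935 and Lars2, ran between 389889 and 5708700 per library, with a median of 2487444.5. All levels are counts per 1000000 of these remaining counts (CPM). Under 10000 detected genes or under 1000000 such counts were found in 5 libraries (cortex zone 1 replicate 1, white matter zone 1 replicates 1 and 5, white matter zone 3 replicate 1 and white matter zone 5 replicate 3), which are called shallow. As a check of the label, the summed level of 12 astrocyte markers was 5078 ± 1649 CPM in uninjured cortex IP and 2930 ± 823 CPM in uninjured cortex input (SD, n = 5 each), with 2 of the 12 called higher in IP (Ndrg2 and Aldh1l1), a share near the 12% of all genes called higher there. In stroke cortex 3 of 12 were higher in IP, against 13.6% of all genes, in uninjured white matter 1 of 12, against 0.527%, and in stroke white matter 0 of 12, against 0.0%. In uninjured cortex 3 of 8 neuronal markers were called higher and none lower, and 2 of 8 oligodendrocyte markers were called higher and 1 lower. In stroke cortex 5 of 8 neuronal markers were called higher and 1 lower, and 2 of 8 oligodendrocyte markers higher and 1 lower. In uninjured white matter 3 of 8 oligodendrocyte and 1 of 8 neuronal markers were called higher and none lower. In stroke white matter no marker of these lists was called. In such bulk RNA, more cells of a type and more RNA per cell cannot be told apart.

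In the GENCODE vM21 annotation of GRCm38, the build named in the submitters' processing notes, B2m lies on chromosome 2 at positions 122147686 to 122153083 on the plus strand, Cd74 outside the MHC on another chromosome, and the other 8 genes in the MHC on chromosome 17. Tapbp (33915899 to 33929292, plus), H2-K1 (33996017 to 34000347, minus), Psmb9 (34181987 to 34187764, minus), Tap1 (34187553 to 34197225, plus), Psmb8 (34197721 to 34201454, plus), H2-Aa (34282744 to 34287823, minus), H2-D1 (35262730 to 35267499, plus) and H2-T23 (36029773 to 36032855, minus) follow each other there. All counts are per whole gene, and whether reads outside exons were counted is not given. The class I heavy chains belong to a family of near copies: 12.8% of the 50-base stretches of H2-D1 transcripts, 9.63% of those of H2-K1 and 14.5% of those of H2-T23 also occur in another gene, so their reads may have been split or lost among family members. For Tapbp the share was 23.2%, most of it (20.3%) with the antisense gene Gm19412, for Psmb8 11.9%, with the antisense gene Gm20496 (11.6%), and use of strand in the counting is not given. B2m and Cd74 shared no such stretch with another gene, and H2-Aa 0.514%. Psmb9 and Tap1 overlap head to head over 212 bases and shared 4.19% and 3.33% of their stretches.

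A RefSeq promoter window (250 bases before to 50 after the start, build GRCm38.p6) was matched for 9 of the 10 genes; RefSeq and GENCODE starts can differ. The windows of the 3 class I genes with the highest levels are shown because these genes moved together in the cortex; capitals mark an interferon-stimulated response element core (GAAANNGAAA), a CRE-like element (TGACG) and a CCAAT box, each searched on both strands.
B2m, chr2:122147437-122147736, plus strand: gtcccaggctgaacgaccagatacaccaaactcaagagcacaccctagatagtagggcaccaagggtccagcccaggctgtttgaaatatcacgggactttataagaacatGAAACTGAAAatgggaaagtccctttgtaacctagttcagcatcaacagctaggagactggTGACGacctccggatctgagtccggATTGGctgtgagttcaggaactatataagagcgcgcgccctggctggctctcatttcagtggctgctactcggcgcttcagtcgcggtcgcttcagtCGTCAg
H2-K1, chr17:34000298-34000597, minus strand: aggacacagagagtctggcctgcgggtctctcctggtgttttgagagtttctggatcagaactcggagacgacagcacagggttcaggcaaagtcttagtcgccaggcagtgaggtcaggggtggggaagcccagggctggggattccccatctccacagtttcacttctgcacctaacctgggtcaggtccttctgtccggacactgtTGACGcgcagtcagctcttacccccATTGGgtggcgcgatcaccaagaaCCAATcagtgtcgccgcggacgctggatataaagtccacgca
H2-D1, chr17:35262844-35263143, plus strand: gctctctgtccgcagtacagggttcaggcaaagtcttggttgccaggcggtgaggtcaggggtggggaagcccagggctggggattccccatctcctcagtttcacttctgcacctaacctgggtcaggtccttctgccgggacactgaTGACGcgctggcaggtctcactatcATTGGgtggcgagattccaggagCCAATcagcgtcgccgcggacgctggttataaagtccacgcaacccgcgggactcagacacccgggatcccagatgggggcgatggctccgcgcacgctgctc
The response element core, in exactly these letters, was present in 2 of the 9 genes (B2m and H2-T23) and in 3.44% of all 32851 windows. Variants of it were not searched, so windows without a match, those of H2-K1 and H2-D1 among them, may still hold such an element. The CRE-like element was present in 6 of 9 and in 20.8% of all windows, and the CCAAT box in 8 of 9 and in 37.4%. In B2m, H2-K1 and H2-D1 the CRE-like element is followed by a CCAAT box on the other strand (read as ATTGG), with 25 bases between the starts of these motifs.
B2m: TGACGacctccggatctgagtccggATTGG
H2-K1: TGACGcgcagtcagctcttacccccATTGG
H2-D1: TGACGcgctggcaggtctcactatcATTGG
H2-Aa: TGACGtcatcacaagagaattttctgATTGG
In H2-Aa, the class II gene, the starts are 26 bases apart. The arrangement with exactly 25 bases, searched on both strands, was found in 31 of the 32851 windows (0.0944%), and was noticed in the members before it was counted. The windows of Tap1 and Psmb9, which are transcribed away from each other, share 275 bases, so their motifs are the same sites. These matches describe letters only.

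B2m had the highest level per kilobase of exon of the 10 genes in all 4 groups compared in this way, 430 ± 97.1 CPM per kilobase in cortex zone 1 and 66.6 ± 15.5 in uninjured cortex, and 617 ± 265 in white matter zone 1 and 55.5 ± 26.5 in uninjured white matter (SD, n = 5 each). On the same scale H2-K1 followed with 34.8 ± 8.91 in cortex zone 1 and 3.72 ± 1.26 in uninjured cortex, and H2-D1 with 29.5 ± 7.99 and 3.41 ± 1.55, so that H2-K1 and H2-D1 did not differ beyond their spread. Cd74 ranked 4 of 10 in cortex zone 1 with 22.1 ± 22.3 and 6 of 10 in uninjured cortex with 0.41 ± 0.395. The immunoproteasome subunits were near the bottom of the order, with 1.74 ± 1.44 for Psmb8 and 0.79 ± 1.03 for Psmb9 in cortex zone 1, against 0.154 ± 0.179 and 0.0272 ± 0.0608 in uninjured cortex.

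**Figure D1:**
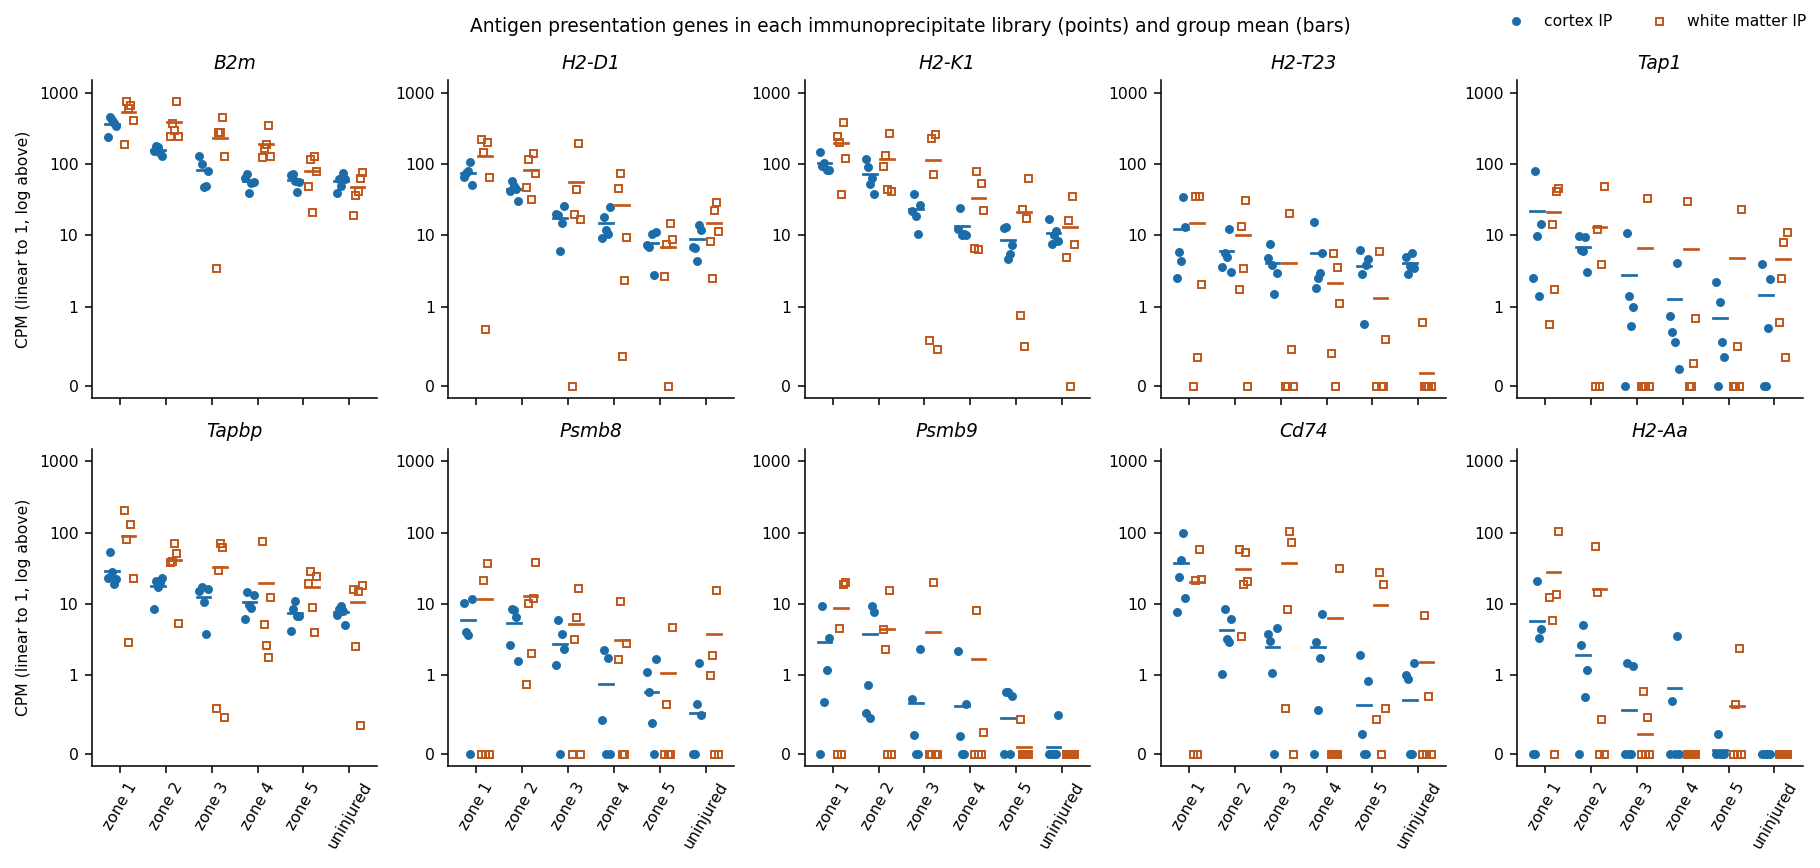
Level of each of the 10 genes in every IP library (points; filled circles cortex, open squares white matter) by zone, with uninjured tissue at the right; bars are group means of 5 libraries and the y axis is CPM, linear up to 1 and logarithmic above. B2m in cortex sits between 244 and 461 CPM in zone 1 and between 39.98 and 74.5 CPM in uninjured tissue, and the white matter points are more scattered than the cortex points.

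After cortical stroke B2m, the classical class I heavy chains H2-D1 and H2-K1, tapasin and the class II invariant chain were higher in zone 1. Of the 6 members with enough counts to be tested there, these 5 were higher than in uninjured cortex and none was lower, while 4.81% of all 12526 genes tested were called higher. In these 5 genes every zone 1 library also lay above every uninjured library, which held for 5.26% of the genes tested. Cd74 and H2-T23 passed the count filter in zone 1 and in no other cortex zone, against the same uninjured libraries. Cd74 thus entered the test through its high zone 1 counts. Its call and its lack of overlap add no support beside these shares. All tests named here are edgeR's quasi-likelihood test with Benjamini-Hochberg adjustment over all genes tested and a threshold of 0.05. The remaining 4 members (Tap1, Psmb8, Psmb9 and H2-Aa) had too few counts to be tested in this comparison.

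B2m, the light chain of every class I molecule, had 244, 461, 422, 380 and 343 CPM in the zone 1 libraries, against 39.98, 61.5, 48.7, 74.5 and 61.7 CPM in uninjured cortex. The groups did not overlap, and the lowest zone 1 value was that of the shallow library. The log2 fold change, zone 1 over uninjured, was 2.65 ± 0.23 (SE; adjusted p = 4.17e-07, edgeR quasi-likelihood). H2-D1, a classical heavy chain, had 66.7, 75.5, 79.1, 107 and 51.1 CPM in zone 1, against 6.996, 6.63, 4.42, 14.0 and 11.9 CPM in uninjured cortex. No zone 1 library came near the uninjured range, and the log2 fold change was 3.04 ± 0.39 (adjusted p = 5.17e-05, edgeR). H2-K1, the other classical heavy chain listed, had 146, 94.8, 104, 82.4 and 83.4 CPM in zone 1, against 17.0, 7.57, 10.1, 11.6 and 8.46 CPM in uninjured cortex. Here the shallow library was the highest of its group, the groups were again apart, and the log2 fold change was 3.14 ± 0.35 (adjusted p = 8.99e-06, edgeR).

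Tapbp, tapasin, had 23.1, 52.6, 27.6, 19.2 and 22.5 CPM in zone 1, against 6.996, 8.52, 9.48, 7.87 and 4.98 CPM in uninjured cortex. Replicate 2 stood above the other zone 1 libraries, and all of them lay above the uninjured range. Its log2 fold change of 1.88 ± 0.49 was the smallest of the 5 and passed narrowly (adjusted p = 0.0270, edgeR); the call was lost in 7 of 17 alternative fits, among them those without zone 1 replicate 2 or without any 1 of the uninjured libraries, with log2 fold changes between 1.54 and 2.00. Cd74, the invariant chain, had 7.69, 23.9985, 41.6, 99.7 and 12.1 CPM in zone 1, against 1.00, 0.947, 0, 0 and 1.49 CPM in uninjured cortex. Zone 1 libraries differed widely, up to the 99.7 CPM of replicate 4, and all lay above uninjured cortex, where the gene had 5 counts over the 5 libraries. The log2 fold change was 5.95 ± 0.94 (adjusted p = 0.000462, edgeR), and its size depends on those few counts.

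H2-T23, which presents peptides of other class I molecules, was tested and did not pass. It had 2.56, 5.78, 4.32, 34.9 and 13.3 CPM in zone 1, against 5.00, 2.84, 3.79, 5.66 and 3.48 CPM in uninjured cortex. Replicates 4 and 5 stood above the uninjured range and the other 3 within or near it, and the log2 fold change was 1.56 ± 0.73 (adjusted p = 0.293, edgeR). Of the untested members, Tap1 had 2.56, 80.4, 9.98, 1.42 and 14.5 CPM in zone 1, against 4.00, 0, 0, 0.738 and 2.49 CPM in uninjured cortex; 1 library held most of its counts and the groups overlapped. Psmb8 had 10.3, 4.03, 3.66, 0 and 11.6 CPM in zone 1, against 0, 0, 0.632, 1.48 and 0.497 CPM in uninjured cortex, so that 4 of 5 zone 1 libraries lay above the uninjured range. Psmb9 had 77 counts over the zone 1 libraries (0, 9.28, 0.665, 1.19 and 3.33 CPM) and 1 count over the uninjured ones, a ratio of 40.6 of the pooled levels with a 95% counting interval between 7.07 and 1624. H2-Aa had 100 counts in zone 1, of which 63 in replicate 3 (0, 0, 21.0, 3.32 and 4.503 CPM), and none in uninjured cortex, which makes the pooled level at least 17.6-fold higher, against a floor of 3 counts over the uninjured group. Such intervals and floors cover counting error alone, because copies made in amplification were not told apart.

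In zone 2 B2m, H2-D1 and H2-K1 were also higher than in uninjured cortex. Of 4 members tested, these 3 were called, against 3.12% of the 11713 genes tested, and in the same 3 every zone 2 library lay above every uninjured one, against 2.97% of genes. B2m had 155, 177, 175, 143 and 132 CPM in zone 2, all above the 74.5 CPM of the highest uninjured library, with a log2 fold change of 1.47 ± 0.18 (adjusted p = 1.15e-06, edgeR). H2-D1 had 42.4, 57.3, 50.1, 45.1 and 30.7 CPM in zone 2, with no overlap, and a log2 fold change of 2.31 ± 0.31 (adjusted p = 6.73e-06, edgeR). H2-K1 had 117, 91.7, 53.3, 64.8 and 38.5 CPM, also without overlap, and a log2 fold change of 2.78 ± 0.31 (adjusted p = 3.38e-07, edgeR). Tapbp had 8.37, 21.2, 17.0, 19.7 and 23.3 CPM in zone 2; replicate 1 fell inside the uninjured range and the other 4 above it, and its log2 fold change of 1.25 ± 0.39 did not pass (adjusted p = 0.0661, edgeR). Cd74 had too few counts over both groups to be tested here, with 1.05, 8.37, 3.22, 2.91 and 6.22 CPM in zone 2. The uninjured libraries are the same in every zone comparison of a region, so the comparisons are not independent.

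Set against zone 2, zone 1 had a higher level of B2m, with a log2 fold change, zone 1 over zone 2, of 1.13 ± 0.20 (adjusted p = 0.0310, edgeR; 1 of 8 members tested, 0.161% of 12461 genes). All zone 1 libraries lay above all zone 2 libraries, which held for 1.77% of the genes tested. This call was lost in 6 of 17 alternative fits, all of which left out a library: zone 1 replicate 2 or 4, or zone 2 replicate 1, 3, 4 or 5. H2-D1 had a log2 difference of 0.64 ± 0.30 (adjusted p = 0.543, edgeR) between these zones and Cd74 one of 3.03 ± 0.70 (adjusted p = 0.0899, edgeR), neither past the threshold. Cd74 passed in 4 of 17 alternative fits, DESeq2 among them.

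The higher-numbered zones of the cortex gave no call. In zone 3 none of 4 members tested passed, in edgeR or DESeq2, and 0.0405% of 12356 genes were called higher; 3 members had an unadjusted p under 0.05. B2m had 130, 101, 48.0, 48.7 and 81.5 CPM in zone 3, of which 3 values lay above the uninjured range and 2 within it. Its log2 fold change was 0.49 ± 0.22 (adjusted p = 0.824, edgeR), that of H2-D1 0.92 ± 0.39 (adjusted p = 0.777) and that of H2-K1 1.08 ± 0.35 (adjusted p = 0.528). In zones 4 and 5, none of 4 members passed by either tool, no member had an unadjusted p under 0.05, and 0.0% of 12140 and 0.0% of 12392 genes were called higher. B2m had 63.2, 72.5, 39.5, 54.1 and 57.1 CPM in zone 4 and 70.2, 73.1, 59.0, 40.2 and 56.1 CPM in zone 5, within or just under the uninjured range of 39.98 to 74.5 CPM. H2-K1 in zone 5 ran between 4.72 and 13.1 CPM and H2-D1 between 2.79 and 11.1 CPM, each overlapping uninjured cortex. By its mean, B2m in cortex was ordered zone 1 (370 ± 83.5), zone 2 (156 ± 19.8), zone 3 (81.9 ± 35.2), zone 5 (59.7 ± 13.1), with zone 4 and uninjured cortex at 57.3 ± 12.2 and 57.3 ± 13.3 CPM (SD, n = 5 each); zone 3, zone 4, zone 5 and uninjured cortex overlapped each other.

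**Figure D2:**
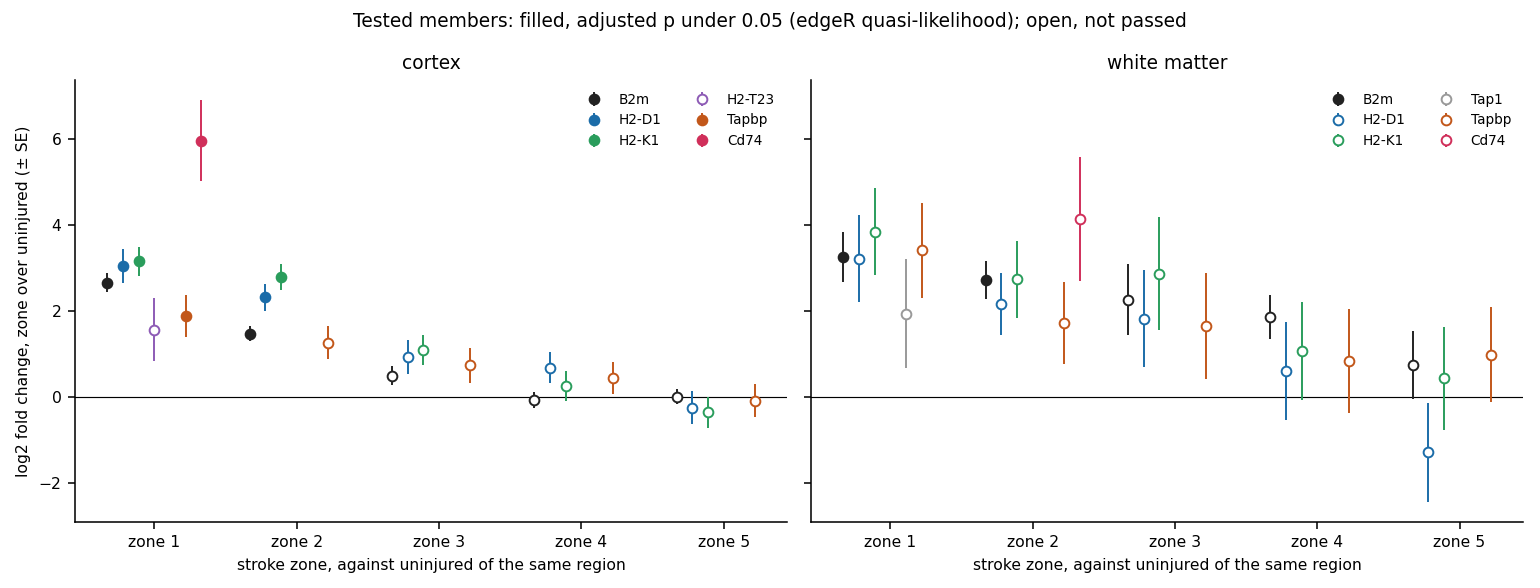
Log2 fold changes, zone over uninjured, with standard errors, for the members that could be tested in each zone of the cortex (left) and the white matter (right); filled points passed an adjusted p of 0.05 in edgeR's quasi-likelihood test and open points did not. In cortex the points descend toward 0 by zone 4, while in white matter the error bars are longer and only B2m in zones 1 and 2 is filled.

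White matter stroke showed a rise of B2m in zones 1 and 2. In zone 1 B2m had 195, 763, 609, 676 and 410 CPM, against 19.2, 36.7, 41.5, 64.6 and 76.4 CPM in uninjured white matter. The groups did not overlap, the shallow replicate 1 was the lowest, and the log2 fold change was 3.25 ± 0.58 (adjusted p = 0.0199, edgeR). Of 5 members tested it alone passed, against 0.383% of 10438 genes called higher; 2 members lay wholly above uninjured white matter, against 1.69% of genes. The call was lost in 4 of 17 alternative fits, each without 1 uninjured library (replicate 1, 2, 3 or 4), with a log2 fold change of at least 3.02 in each. In zone 2 B2m had 246, 382, 297, 780 and 247 CPM, again apart from uninjured tissue, with a log2 fold change of 2.70 ± 0.44 (adjusted p = 0.00348, edgeR). It was 1 of 5 members tested there, against 0.656% of 10522 genes, and 3 members lay wholly above uninjured white matter, against 2.99% of genes. This call was lost when all IP libraries of the region entered 1 fit.

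The heavy chains in white matter zone 1 had fold changes similar in size to those in cortex zone 1, with larger errors. H2-K1 had 244, 204, 37.9, 393 and 121 CPM in zone 1, against 5.05, 16.4, 0, 36.3 and 7.68 CPM in uninjured white matter. Replicate 3 at 37.9 CPM lay just above the highest uninjured library, and the log2 fold change of 3.84 ± 1.00 did not pass (adjusted p = 0.0824, edgeR). H2-D1 had 223, 149, 0.722, 202 and 66.8 CPM in zone 1, against 8.49, 2.53, 22.7, 29.7 and 11.7 CPM in uninjured white matter. Replicate 3 was below all uninjured libraries while the other 4 were above them, and the log2 fold change of 3.21 ± 1.02 did not pass (adjusted p = 0.160, edgeR). Tapbp had 209, 81.5, 2.89, 133 and 23.3 CPM in zone 1, against 15.97, 2.53, 15.4, 0.367 and 18.3 CPM in uninjured white matter, a log2 fold change of 3.40 ± 1.11 (adjusted p = 0.172, edgeR), and Tap1 one of 1.93 ± 1.27 (adjusted p = 0.525, edgeR). Replicate 3 of zone 1 was low for Tapbp too, although its B2m was among the high values. By DESeq2, 4 of the 5 members passed in zone 1 (B2m, H2-D1, H2-K1 and Tapbp). Without zone 1 replicate 3 edgeR also called 4 of 7 tested, of which B2m, H2-D1 and H2-K1 were among the 5 tested before. In that edgeR fit Tapbp and Tap1 did not pass. The share of all genes called in these alternative fits is not given here, so these counts have no background beside them.

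In zone 2, H2-D1 had 48.3, 119, 32.0, 142 and 75.4 CPM and H2-K1 had 94.9, 134, 44.7, 274 and 41.9 CPM, all above the highest uninjured libraries of 29.7 and 36.3 CPM. Their log2 fold changes of 2.15 ± 0.73 (adjusted p = 0.158, edgeR) and 2.73 ± 0.89 (adjusted p = 0.143, edgeR) did not pass, and those of Tapbp, 1.71 ± 0.96 (adjusted p = 0.448), and Cd74, 4.13 ± 1.44 (adjusted p = 0.174), did not either. DESeq2 called 4 of the 5 here, B2m, H2-D1, H2-K1 and Cd74, and the share of all genes it called is not given here. Cd74 had 58.2, 3.52, 18.8, 54.1 and 21.0 CPM in zone 2, against 0, 6.95, 0, 0.734 and 0 CPM in uninjured white matter, so that 4 of 5 zone 2 libraries lay above the highest uninjured one.

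Zones 3, 4 and 5 of white matter gave no call by edgeR. B2m had 3.49, 278, 283, 460 and 128 CPM in zone 3, where the low value is that of a shallow library and the other 4 lay above the uninjured range. Its log2 fold change was 2.26 ± 0.82 (adjusted p = 0.296, edgeR), and that of H2-K1, with 2 values under 1 CPM and 3 over 70, was 2.86 ± 1.31 (adjusted p = 0.409); none of 4 members passed in edgeR or DESeq2, 2 had an unadjusted p under 0.05, and 0.0% of 9220 genes were called higher. In zone 4 B2m had 125, 171, 193, 350 and 129 CPM, all above the uninjured libraries, as 1 of 4 members tested and 2.27% of genes. The log2 fold change of 1.86 ± 0.52 did not pass in edgeR (adjusted p = 0.201), where 0.0476% of 10508 genes were called higher, and passed in DESeq2. In zone 5 B2m had 49.1, 117, 21.6, 131 and 80.1 CPM, which overlapped uninjured tissue, with a log2 fold change of 0.74 ± 0.79 (adjusted p = 0.951, edgeR). None of 4 members passed there by either tool, none had an unadjusted p under 0.05, and 0.0% of 10195 genes were called higher. The order of B2m means in white matter was zone 1 (531 ± 228), zone 2 (390 ± 225), zone 3 (231 ± 173), zone 4 (193 ± 92.0), zone 5 (79.7 ± 45.5) and uninjured (47.7 ± 22.8 CPM; SD, n = 5 each), and neighbours in this order overlapped.

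The low members were scattered over single white matter libraries. Psmb9 had no count in any uninjured white matter IP library and 80 counts in zone 1, spread over 3 libraries (0, 4.56, 0, 19.0 and 20.1 CPM), at least 35.8-fold higher as a pooled level against a floor of 3 counts over the uninjured group. H2-Aa, also without a count in uninjured white matter, had 170 counts in zone 1, of which 100 in the shallow replicate 5 (12.6, 5.98, 0, 13.9 and 106 CPM), and 124 in zone 2 (65.3, 14.6, 0, 0.447 and 0 CPM). Zone 4 held none. Tap1 in white matter zone 3 was found in replicate 4 only, with 70 counts, and Cd74 in zone 4 in replicate 5 only, with 111 counts. Psmb8 had 0, 21.9, 0, 37.1 and 0 CPM in zone 1, against 1.01, 1.90, 0, 15.8 and 0 CPM in uninjured white matter, and overlapped it.

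Whether the zone 1 response differed between regions was tested as an interaction, cortex over white matter, for 9 members; none passed, by edgeR or DESeq2, against 1.88% of 14601 genes called in either direction. The difference of log2 fold changes was -0.58 ± 0.56 for B2m (adjusted p = 0.645, edgeR), with an error nearly as large as the difference, and -0.70 ± 1.02 for H2-K1 (adjusted p = 0.783). H2-T23 had the 1 unadjusted p under 0.05, with a difference of -3.85 ± 1.74 (adjusted p = 0.246, edgeR), over 4 counts in uninjured white matter. At baseline, uninjured white matter set against uninjured cortex gave no call among 4 members (0 with an unadjusted p under 0.05, 0 by DESeq2), while 15.5% of 11815 genes were called higher in white matter; B2m had a log2 difference of 0.27 ± 0.42 (adjusted p = 0.672, edgeR), beside a median of 0.23 over all genes tested. On the CPM scale its mean was 47.7 in uninjured white matter and 57.3 in uninjured cortex, so the sign of this difference depends on the scale.

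IP was set against input of the same region and state to ask whether ribosome-bound RNA of the tagged cells held more or less of these transcripts than the input. B2m was lower in IP. In stroke cortex, zones 1 to 3, it had 77.5, 93.5 and 70.2 CPM in IP, against 290, 259 and 243 CPM in input. The groups were far apart, and the log2 fold change, IP over input, was -1.97 ± 0.22 (adjusted p = 9.20e-05, edgeR). Of 3 members tested it alone was called lower, against 14.9% of 11476 genes, and it alone lay wholly below input, against 16.2% of genes. These IP libraries of zones 1 to 3 together lay within the IP range of zone 3 alone (48.0 to 130 CPM). They were below every IP library of zone 2 (132 to 177 CPM) and of zone 1 (244 to 461 CPM). The comparison with input therefore says little about the rise in zones 1 and 2. In uninjured cortex B2m had 39.98, 61.5, 48.7, 74.5 and 61.7 CPM in IP, against 34.8, 208, 117, 122 and 106 CPM in input. Input replicate 1, at 34.8 CPM, was below all IP libraries and the other 4 input libraries above them, and the log2 fold change was -1.37 ± 0.33 (adjusted p = 0.00543, edgeR). It was again the 1 call among 3 members, against 13.4% of 11280 genes called lower; none of the 3 lay wholly below input, as 3.73% of genes did. The difference of the log2 ratios between stroke and uninjured cortex was -0.61 ± 0.49 (adjusted p = 0.992, edgeR); none of 4 members passed by edgeR or DESeq2, none had an unadjusted p under 0.05, and 0.0% of 15150 genes were called in either direction.

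No heavy chain was called lower in cortex IP. H2-D1 in uninjured cortex had 6.996, 6.63, 4.42, 14.0 and 11.9 CPM in IP, against 6.42, 4.35, 3.87, 1.14 and 4.80 CPM in input, a log2 fold change of 0.78 ± 0.59 (adjusted p = 0.346, edgeR), with 4 of 5 IP libraries above all input libraries. In stroke cortex it had 12.2, 32.3 and 17.9 CPM in IP, against 20.0, 12.6 and 38.1 CPM in input, and the groups overlapped. H2-K1 in stroke cortex had 15.9, 39.5 and 26.1 CPM in IP, against 28.7, 39.3 and 32.7 CPM in input. In uninjured cortex 1 input library of H2-K1 stood at 91.7 CPM and the other 4 between 1.20 and 11.1, beside IP values between 7.57 and 17.0 CPM. Tapbp had too few counts for these tests. Its IP libraries all lay above input in uninjured cortex (4.98 to 9.48 against 0 to 4.35 CPM) and stroke cortex (4.89 to 16.5 against 1.67 to 4.43 CPM). Psmb8, also untested, did so in stroke cortex (2.45 to 4.61 against 0 to 0.443 CPM) and overlapped input in uninjured cortex. Among genes tested, 16.7% in uninjured and 29.4% in stroke cortex lay wholly above input.

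In white matter no member was called between IP and input. B2m in stroke white matter had 296, 225 and 120 CPM in IP, against 772, 380 and 451 CPM in input, without overlap. B2m was 1 of 5 members wholly below input, against 10.3% of genes. Its values in these IP libraries lay within the IP range of zone 3 alone (3.49 to 460 CPM). The log2 fold change was -1.18 ± 0.52 (adjusted p = 0.726, edgeR), and 0.0% of 11689 genes were called lower. In uninjured white matter it had 19.2, 36.7, 41.5, 64.6 and 76.4 CPM in IP, against 166, 129, 104, 193 and 77.8 CPM in input. The highest IP library lay just under the lowest input library, and 4.79% of genes lay wholly below input. The log2 fold change of B2m, -1.08 ± 0.43, did not pass (adjusted p = 0.337, edgeR), where 0.0753% of 11950 genes were called lower. In each of these 2 comparisons 5 members were tested, 1 had an unadjusted p under 0.05 and DESeq2 called none.

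**Figure D3:**
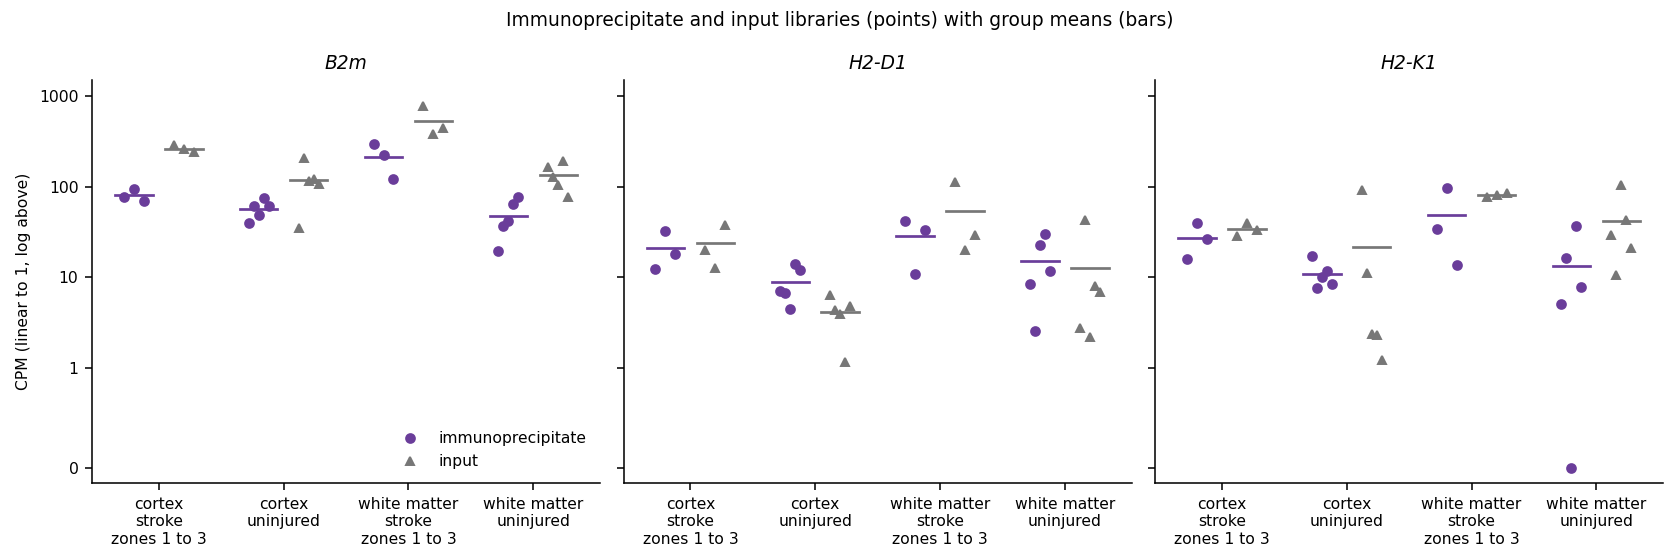
Levels of B2m, H2-D1 and H2-K1 in IP (circles, left of each pair) and input libraries (triangles) of the 2 regions with and without stroke, with group means as bars; the y axis is CPM, linear up to 1 and logarithmic above. B2m was lower in IP by its mean in all 4 settings, for example 80.4 against 264 CPM in stroke cortex, whereas the IP and input ranges of H2-D1 overlap.

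Stroke and uninjured tissue were also compared in input. In white matter input, zones 1 to 3, B2m had 772, 380 and 451 CPM after stroke, against 166, 129, 104, 193 and 77.8 CPM in uninjured tissue. The groups did not overlap, which held for 1 of 6 members tested and 2.61% of genes. The log2 fold change of B2m was 2.12 ± 0.34 (adjusted p = 0.0267, edgeR), the call of 1 of 6 members tested and 0.055% of 14556 genes. The call was lost in 5 of 13 alternative fits, those without stroke replicate 1 or without uninjured replicate 1, 2, 3 or 5. H2-D1 had a log2 fold change of 2.30 ± 0.95 (adjusted p = 0.434, edgeR), with 112, 19.8 and 29.3 CPM after stroke against 2.71, 43.3, 2.15, 7.91 and 6.83 CPM. In cortex input, B2m had 290, 259 and 243 CPM after stroke, against 34.8, 208, 117, 122 and 106 CPM in uninjured tissue, and H2-D1 had 20.0, 12.6 and 38.1 CPM, against 6.42, 4.35, 3.87, 1.14 and 4.80 CPM. Both were higher in every stroke library than in any uninjured one, 2 of 3 members tested and 2.02% of all genes, with log2 fold changes of 1.18 ± 0.41 and 2.46 ± 0.78, and neither passed (adjusted p = 0.943 for each, edgeR). Only 0.0074% of 13515 genes were called there, DESeq2 called no member, and 2 of 3 members had an unadjusted p under 0.05.

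Some other genes of the pathways passed in cortex, where 4.81% of all genes were called higher in zone 1 and 3.12% in zone 2. Of 20 further class I genes, 11 were tested in cortex zone 1, and 2 were higher and none lower, with a median log2 fold change of 0.09 beside 0.07 over all genes tested and 2.85 over the 6 members tested. Among them was Psme1, a subunit of the proteasome activator PA28 (1.30 ± 0.35, adjusted p = 0.0343, edgeR). The chaperone Canx, the gene with the highest level among those that did not pass, had 0.08 ± 0.21. None of 14 constitutive proteasome subunits passed in cortex zone 1 (median -0.24). Of 17 further class II genes, 7 were tested and 3 were higher: Ctss, the protease that trims the invariant chain (2.85 ± 0.44, adjusted p = 0.000414, edgeR), Lgmn, a lysosomal endopeptidase (1.96 ± 0.34, adjusted p = 0.00115), and the beta chain H2-Eb1 (3.93 ± 1.00, adjusted p = 0.0238). H2-Eb1 was tested against uninjured cortex in no other zone, so it too entered through its zone 1 counts. Rfx5, a regulator of class II promoters, had 1.08 ± 0.43 (adjusted p = 0.190) and did not pass, and Ciita, the class II transactivator, chosen after its value was seen, had 0.08 ± 0.94 (adjusted p = 0.982). In cortex zone 2, Ctss and Lgmn were the 2 of 6 class II genes called. In white matter zones 1 and 2 none of the 9 and 8 class I genes or the 6 and 5 class II genes tested passed.

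Genes of the interferon response, which acts upstream of most members, were higher in cortex: 7 of 9 tested of 16 in zone 1 and 7 of 9 in zone 2, with median log2 fold changes of 2.45 and 2.87. Oasl2, an oligoadenylate synthetase-like gene, had the lowest adjusted p in both (4.84 ± 0.47, adjusted p = 1.82e-06 in zone 1; 4.43 ± 0.43, adjusted p = 7.59e-08 in zone 2; edgeR). In white matter none of the 11 and 12 tested passed, with medians of 2.41 and 2.56. Between cortex IP and input, 1 of 3 tested was lower in uninjured and 3 of 10 in stroke tissue, and Oasl2 was lower in both (-3.71 ± 0.55, adjusted p = 0.000165 in uninjured and -2.24 ± 0.42, adjusted p = 0.0024 in stroke; edgeR).

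Markers of microglia and macrophages moved with the members. In cortex all 16 of 16 were higher in zone 1 and 15 of 16 in zone 2, and 6 of 16 were higher in zone 1 than in zone 2, none lower. In zone 1 their summed level ran between 1722 and 3456 CPM, in zone 2 between 688 and 1182 CPM and in uninjured cortex between 157 and 342 CPM, with no marker at 0 in any of these groups. In white matter 6 of 16 were higher in zone 1 and 4 of 16 in zone 2, with summed levels between 1102 and 4576 CPM in zone 1, between 1122 and 2573 CPM in zone 2 and between 254 and 499 CPM in uninjured tissue. B2m per summed marker level had a median of 0.134 in cortex zone 1, 0.163 in zone 2 and 0.250 in uninjured cortex, and of 0.148 in white matter zone 1, 0.206 in zone 2 and 0.105 in uninjured white matter, where the ranges of 0.0462 to 0.553 in zone 1 and 0.0604 to 0.301 in uninjured tissue overlapped. In cortex the ranges were 0.088 to 0.199 in zone 1 and 0.180 to 0.310 in uninjured tissue, which overlapped as well. The part of these cells in the levels of the members was not tested. In stroke white matter input, the 2 of 16 markers called higher beside B2m were C1qc and C1qb. Between IP and input of stroke cortex, where B2m was lower in IP, 2 of 16 markers were lower, P2ry12 among them, and 2 were higher (Selplg and Trem2), both near the 14.9% and 13.6% of all genes called in those directions, and in uninjured cortex P2ry12 was the 1 of 11 tested that was lower.

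**Figure D4:**
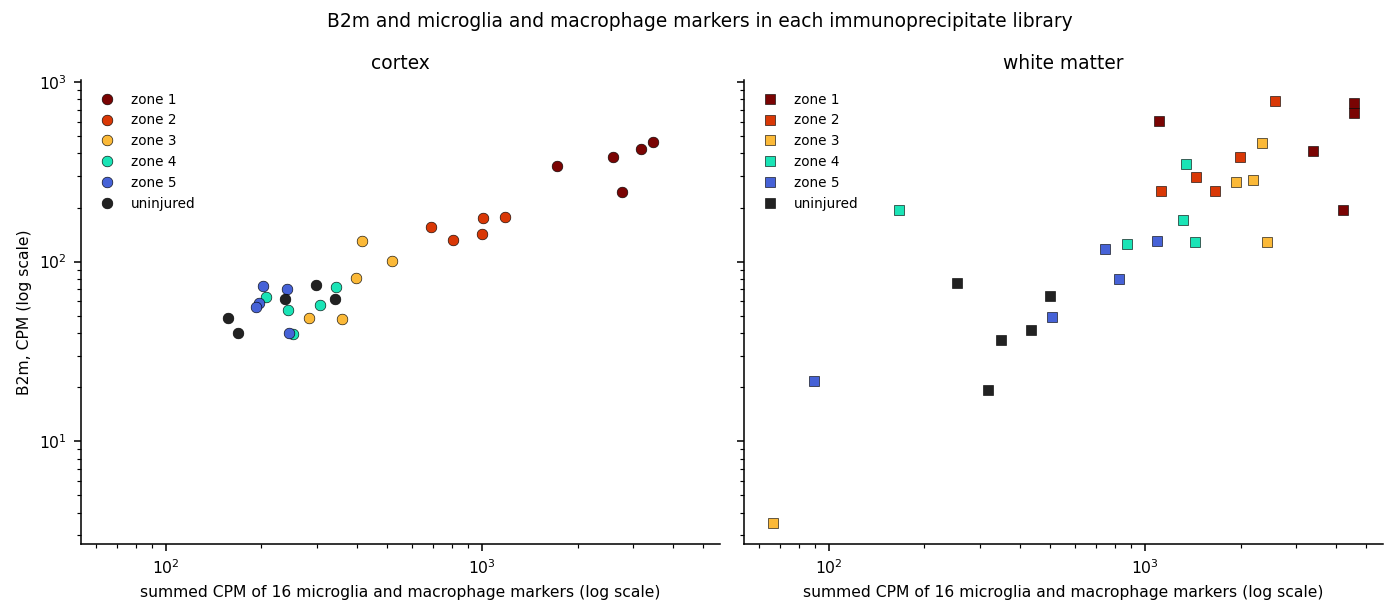
B2m (CPM, y axis) against the summed CPM of 16 microglia and macrophage markers (x axis) in each IP library of cortex (left) and white matter (right), coloured by zone, both axes logarithmic. In cortex the zone 1 libraries lie at the upper right, with marker sums between 1722 and 3456 CPM, zone 2 lies below them, and zones 4 and 5 lie among the uninjured libraries.

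Other markers also moved with zone in the cortex. Of 8 oligodendrocyte markers 7 were higher in zone 1 and 7 in zone 2, with sums between 5185 and 8556 CPM in zone 1, between 3332 and 4604 CPM in zone 2 and between 1727 and 2472 CPM in uninjured cortex. Endothelial markers were called higher in 2 of 10 tested in zone 1 and 2 of 9 in zone 2. Of 12 astrocyte markers 2 were higher and 1 lower in zone 1, 5 were higher in zone 2 and 2 in zone 3. Of 15 blood leukocyte markers only Flt3 had enough counts in cortex zone 1 (0.99 ± 0.85, adjusted p = 0.637, edgeR); their sum ran between 21.1 and 110 CPM in zone 1 and between 8.995 and 17.99 CPM in uninjured cortex, and Cd3g, Ms4a1, S100a8 and S100a9 were among those with no count in zone 1. In white matter the oligodendrocyte sum ran between 7490 and 33615 CPM in zone 1 and between 29229 and 51390 CPM in uninjured tissue, and in zone 2 Mag was the 1 of 8 oligodendrocyte markers that was lower and 2 of 8 neuronal markers (Snap25 and Syt1) were higher. The part of these markers in the results was not tested.

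Among 8978 genes with a mean of at least 10 CPM, those whose group means over the 12 IP groups were most like B2m were Lgals9 (Pearson r = 0.990 on log2(CPM + 1)), Arhgap45 (0.982), Lyn (0.979), Tyrobp (0.968) and C1qc (0.966); Tyrobp and C1qc are on the list of microglia markers. Those most like Cd74 were AU020206 (0.929), Osmr (0.927), Plce1 (0.915), Cd44 (0.913) and Rnase4 (0.906). Among the members themselves, B2m was most alike to H2-K1 (0.950) and least to H2-T23 (0.516). These values describe 12 group means that share libraries, depth and the contrast between low-numbered and high-numbered zones.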

How the data were processed

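RNA was amplified (NuGEN Ovation V2) and sequenced as paired reads, per the labels' protocols. The authors deposited raw counts per Ensembl gene for 82 libraries; the build is GRCm38 per the submitters' processing notes, and none of those sources names the aligner, counter, annotation or strand setting. Symbols were matched for 48349 of 48795 identifiers. No column lacked a sample. The 6 ribosomal genes were removed before scaling.

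The 20 comparisons used edgeR 4.0.16 (R 4.3.3) on the groups compared: TMM scaling, filterByExpr (minimum count 10, minimum total 15), robust quasi-likelihood F-test, Benjamini-Hochberg threshold 0.05; it was tested on simulated data. Members and lists were chosen with earlier results of these data known. All 10 members are named; from other lists, at most the 4 called genes with the lowest adjusted p and the highest uncalled one. Alternatives were DESeq2 1.42.0, RLE scaling, no filter, ribosomal genes kept, a replicate block, shallow libraries left out, all IP libraries in 1 fit, and each library left out. No 2 of 152 replicate pairs agreed within counting noise (lowest chi-square per degree of freedom 3.16). Some genes of the lists are not reported here by name.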

Additional observations from a re-analysis of the deposited data

Results flagged for a closer look

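Among the 89 sets of 5 libraries in which a member had at least 50 counts in all, 19 held a library whose gap to its neighbour exceeded 0.71 of the whole range. About 1 in 20 sets would exceed this cut-off by chance if the values were normally distributed. CPM with many zeros need not be so distributed, so the 19 are listed without a comparison with chance. High single libraries in the cortex were Tap1 in zone 1 replicate 2 (80.4 CPM) and zone 3 replicate 2 (10.7 CPM), Tapbp in zone 1 replicate 2 (52.6 CPM), H2-Aa in zone 1 replicate 3 (21.0 CPM), H2-T23 in zone 2 replicate 4 (12.4 CPM) and zone 4 replicate 1 (15.4 CPM), H2-K1 in zone 4 replicate 2 (24.2 CPM), and H2-K1 in uninjured input replicate 1 (91.7 CPM).

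In white matter they were B2m in zone 2 replicate 4 (780 CPM), H2-D1 in zone 3 replicate 4 (198 CPM) and in uninjured input replicate 2 (43.3 CPM), Tap1 in zone 2 replicate 5 (49.1 CPM), zone 3 replicate 4 (33.1 CPM) and zone 4 replicate 1 (30.8 CPM), Tapbp in zone 4 replicate 1 (75.8 CPM), Psmb8 in uninjured IP replicate 4 (15.8 CPM), Cd74 in zone 4 replicate 5 (31.8 CPM), and H2-Aa in zone 1 replicate 5 (106 CPM) and zone 2 replicate 1 (65.3 CPM). In each case the library was the highest of its group.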

How the results depend on the processing

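Of 321 alternative counts of members called, 291 stayed within 1.5 times the count reported, including comparisons in which no member was called throughout. Alternative log2 fold changes were followed for a chosen part of the tested members and comparisons only, with none from cortex zones 4 and 5. Of these 729 none changed sign, 23 lost the call and 21 gained it. The lack of a sign change holds for that part alone. Cortex zone 1 (5 reported) ran between 4 and 6 when a library was left out, with 4 under the replicate block and 6 without the shallow library, and 7 without the filter on low counts. Cortex zone 2 (3) gave 5 without the filter. Zone 1 over zone 2 (1) gave 2 by DESeq2, without the filter and with all IP libraries in 1 fit, and 0 to 2 when a library was left out. White matter zone 1 (1) gave 4 by DESeq2, 5 without the filter, 2 under the replicate block and 0 to 4 when a library was left out; zone 2 (1) gave 4, 3 and 2 under the first 3 of these and 0 with all IP libraries in 1 fit; zone 4 (0) gave 1 by DESeq2. Uninjured cortex IP over input (1) gave 3 without the filter, and white matter input (1) 0 to 1 when a library was left out. The shares of all genes called in these alternative fits are not given here. In no comparison did every pair of same-numbered replicates deviate together with a correlation over 0.1, so the numbers were not taken to pair the libraries. Among zones, only cortex zones 1 and 2 were set beside each other in this check (correlations between -0.0058 and 0.204). It therefore cannot decide whether same-numbered zone libraries came from 1 animal. With all counts as the total, mean CPM were lower in every group, as the total is larger. Depth limits Tap1, Psmb8, Psmb9 and H2-Aa, which in most groups rest on a few libraries.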
